A study of Homo sapiens with 12 samples.

Results

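The comparison described here sets SK-N-SH cells grown on a surface of 30 kPa against the same cells on a surface of 8 kPa, the stiffest and the middle of 3 stiffnesses. Its members are 8 of the 12 RNA sequencing libraries of the series, replicates 1 to 4 at each of these stiffnesses, chosen by their labels alone. SK-N-SH is an established human neuroblastoma line, a mixture of cells that resemble neurons and of flat cells that cling to the dish. The elastic modulus of a surface, in kilopascals (kPa), measures how stiff it is. No agent or genetic change was given in the labels for any group, and all libraries were made from total RNA of whole cultures. The labels do not say whether replicates were separate cultures, so p-values measure only the spread between these libraries, which may be technical. Of 60664 genes in the table, 17960 passed the filter on low counts and were tested.

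Cells read the stiffness of what they grow on through integrins, which bind matrix proteins outside the cell and actin fibres inside it. On stiffer surfaces adhesions mature, actin tension rises, and the co-activators YAP and TAZ enter the nucleus, where they act with TEAD factors on genes such as CCN1 and CCN2. The Hippo kinases LATS1 and LATS2 restrain YAP and TAZ. Neuroblastoma cells can take an adrenergic state, with the transcription factors of sympathetic neurons, or a mesenchymal state with more matrix and adhesion genes.

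At 8 kPa the libraries held 14951116 to 25349320 counts and at 30 kPa 23896536 to 27820973, and 8 kPa replicate 1 was the shallow one. Transcripts of the mitochondrial genome took 10.2% to 11.5% of counts at 8 kPa and 11.7% to 13.2% at 30 kPa, without overlap. Adrenergic factors marked the cells in every library: HAND2 stood at 253 to 391 CPM at 8 kPa and 277 to 321 CPM at 30 kPa. Levels are in CPM, a gene's counts per 1000000 counts of the library, after scaling of the library totals. TH, the enzyme that starts catecholamine synthesis, was at 0 in 7 of the 8 libraries. All 8 immune markers were under 1 CPM, with MS4A1 and NKG7 at 0 in all 8 libraries, and of 7 epithelial markers KRT5 and KRT14 were at 0 while KRT18 stood at 33.1 to 53.7 CPM, KRT8 at 13.2 to 16.7 CPM and EPCAM at 1.13 to 1.84 CPM.

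One library stood apart from its label, 8 kPa replicate 4. On the first principal component of the 8 libraries, which held 35% of the variance, 8 kPa replicates 1 to 3 lay at -34.5, -13.5 and -20.7 and the 30 kPa libraries between 8.9 and 15.8. Replicate 4 at 8 kPa lay at 14.6, inside the range of the 30 kPa libraries. On the second component (19.8%) it lay at 20.5, above all other libraries. To count this gene by gene, genes with a mean of at least 5 CPM were taken for which 8 kPa replicates 1 to 3 did not overlap the 4 libraries at 30 kPa. Of these 3918 genes, replicate 4 lay past the midpoint on the 30 kPa side in 2810 (71.7%), and in 2263 (57.8%) it lay within or past the 30 kPa range. It sided with 30 kPa in 81.4% of the 1812 genes that were higher there and in 63.4% of the 2106 that were lower. The same count made for each of the other libraries gave 10.8%, 44% and 6.87% for 8 kPa replicates 1, 2 and 3. It gave 12.8%, 20.7%, 19.7% and 42.4% for 30 kPa replicates 1 to 4 on the 8 kPa side. For most named genes in which replicate 4 sided with 30 kPa, the adjusted p without it stands beside the value. In such genes leaving it out moves the 8 kPa mean away from 30 kPa. A lower p there is partly set by that choice and is no support for a difference.

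**Figure D1:**
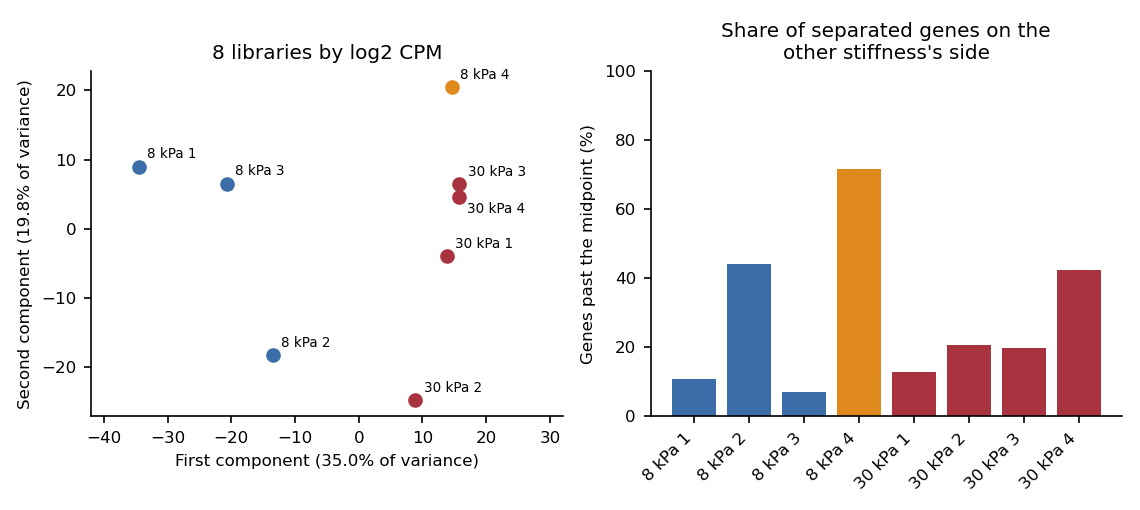
Left: the 8 libraries on the first and second principal components of log2 CPM, with 8 kPa replicates 1 to 3 in blue, 8 kPa replicate 4 in orange and 30 kPa replicates in red. Right: for each library, the percentage of genes separated by the other libraries in which it lay past the midpoint on the other stiffness's side, with 71.7% for 8 kPa replicate 4 and at most 44% for the others.

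What the stiffest surface added to the middle one was small in most genes. The median size of the log2 fold change over the 17960 genes was 0.12, 582 genes differed by at least 1.5-fold and 76 by at least 2-fold. Most of these were genes of low level. Among the 11869 genes with a mean of at least 5 CPM, 81 differed by at least 1.5-fold and 9 by at least 2-fold. With edgeR's quasi-likelihood test over all 12 libraries, 0 genes passed an adjusted p of 0.05 (0% of those tested). The lowest adjusted p was 0.0807, and 3218 genes (17.9%) had an unadjusted p under 0.05, of which 1500 (8.35%) were higher at 30 kPa and 1718 (9.57%) lower. DESeq2 called 414 genes (2.31%) on the same libraries, 128 higher (0.713%) and 286 lower (1.59%), and limma-voom 0. Without a filter on low counts edgeR called 330 (0.918%), 159 higher (0.442%) and 171 lower (0.476%), and with the replicate number as a block 40 (0.223%), 13 higher (0.0724%) and 27 lower (0.15%). Fitting the 8 libraries alone called 61 genes (0.347%), 27 higher (0.154%) and 34 lower (0.194%). Leaving 8 kPa replicate 4 out of the fit with 12 libraries called 1026 (5.63%), 542 higher (2.97%) and 484 lower (2.66%). Leaving it out of the 8 libraries alone called 2612 (14.6%), 1313 higher (7.35%) and 1299 lower (7.27%).

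Agreement between libraries was also counted without a model. All 4 libraries at 30 kPa lay above all 4 at 8 kPa in 860 genes (4.79%) and below them in 1167 (6.5%). With 8 kPa replicate 4 left out, a count added after the data were seen, 3 libraries against 4 did not overlap in 2445 genes higher (13.6%) and 2429 lower (13.5%). The separated genes that were higher at 30 kPa had a median log2 fold change of 0.30, those that were lower one of -0.20. Their median levels were 18.4 and 54.9 CPM. With a mean of at least 5 CPM the median log2 fold changes were 0.23 and -0.19. The first group had a median GC content of 51.7% and a median transcript length of 3.62 kb, the second 46.4% and 3 kb, and all tested genes 47.9% and 3.15 kb. An offset for length and GC content left the count of calls at 0, with 3171 genes at an unadjusted p under 0.05. In RNA from whole cultures, fewer cells of a kind and less RNA per cell cannot be told apart.

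**Figure D2:**
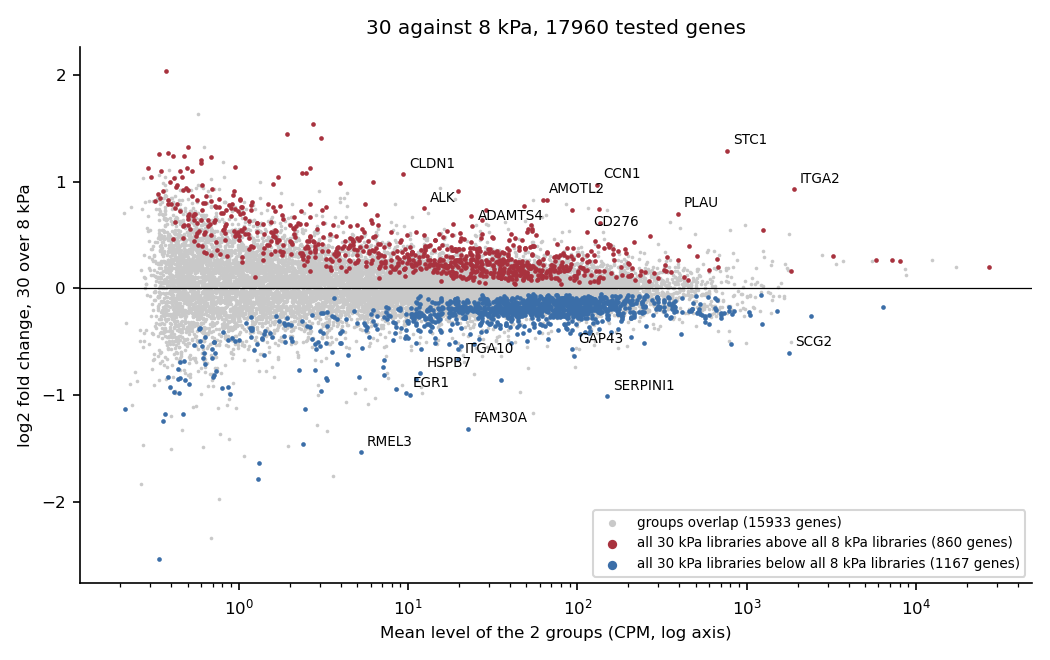
Log2 fold change of 30 over 8 kPa against the mean level of both groups (CPM, log axis) for 17960 tested genes, each point 1 gene. Genes whose 4 libraries at 30 kPa all lay above (red, 860) or below (blue, 1167) those at 8 kPa fan out from 0 on both sides, and ITGA2 and STC1 stand out among genes of high level.

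The integrin subunit ITGA2, which pairs with ITGB1 to bind collagen, was the clearest abundant gene. It lies on chromosome 5 (GRCh38, chr5:52989326-53094779, plus strand). Its level was 1073, 1436, 1237 and 1477 CPM in 8 kPa replicates 1 to 4 and 2542, 2554, 2628 and 2233 CPM in 30 kPa replicates 1 to 4. The groups lay far apart, and replicate 4 at 8 kPa stayed with its own group. The means were 1306 ± 187 and 2489 ± 175 CPM (SD, n = 4 each). On the log2 scale ITGA2 was higher by 0.93 (SE 0.184, adjusted p = 0.106). It passed in the 8 libraries alone (adjusted p = 0.0201) and in 9 of 24 alternative fits. Its partner ITGB1, named after its values were seen, stood at 1588 to 1839 CPM at 8 kPa and 1864 to 1998 CPM at 30 kPa, a log2 fold change of 0.16.

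STC1, a secreted glycoprotein hormone that acts on calcium and phosphate handling, had the largest upward difference among genes without overlap and with a mean of at least 5 CPM. It stood at 292, 682, 347 and 447 CPM at 8 kPa and 949, 1478, 925 and 983 CPM at 30 kPa. Replicate 2 was the highest library of both groups, and the groups did not overlap. The log2 fold change was 1.29 (SE 0.376, adjusted p = 0.15, and 0.0491 in the 8 libraries alone). The tight junction protein CLDN1 stood at 3.61, 7.16, 4.38 and 8.59 CPM at 8 kPa and 11.9, 12.5, 13 and 13 CPM at 30 kPa (1.07, SE 0.288, adjusted p = 0.139, and 0.0302 without replicate 4). The scavenger receptor SCARF2 stood at 26.8 to 41.5 CPM and 58.5 to 63.5 CPM (0.77, SE 0.13, adjusted p = 0.0848), and DRAM1, a lysosomal membrane protein linked to autophagy, at 77.9 to 118 CPM and 162 to 173 CPM (0.74, SE 0.207, adjusted p = 0.15). For both, the libraries at 30 kPa were close together and well above every library at 8 kPa, and both passed in the 8 libraries alone (adjusted p = 0.0213 and 0.0289).

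Other genes among the 12 highest were the aldehyde oxidase AOX1 (log2 fold change 1.00), the immune checkpoint ligand PDCD1LG2 (0.91), the single-stranded DNA binding protein NABP1 (0.83) and LCAT, which esterifies cholesterol on lipoproteins (0.79). Their adjusted p ran from 0.15 to 0.182 in edgeR's test. In all 4 of them 8 kPa replicate 4 was the highest library at 8 kPa and lay past the midpoint, and without it their adjusted p were 0.0515, 0.0347, 0.0464 and 0.0261. Another checkpoint ligand, CD276, did not share this. It stood at 91.3, 100, 86.7 and 91.8 CPM at 8 kPa and 136, 145, 135 and 119 CPM at 30 kPa (0.53, SE 0.0983, adjusted p = 0.106), with replicate 4 in the middle of its own group and an adjusted p of 0.0201 in the 8 libraries alone. ANGPTL4, a secreted inhibitor of lipoprotein lipase, stood at 17 to 25.5 CPM and 33.7 to 40.7 CPM (0.73, SE 0.215, adjusted p = 0.15).

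Among the same genes the largest difference downward was in RMEL3, a long noncoding RNA annotated as antisense on chromosome 5 (GRCh38, chr5:57395060-57533424, plus strand). It stood at 10.2, 7.04, 10.5 and 3.44 CPM at 8 kPa and 3.17, 2.36, 2.33 and 2.82 CPM at 30 kPa. All libraries at 30 kPa were below all at 8 kPa, but replicate 4 at 8 kPa lay just above them (log2 fold change -1.53, SE 0.351, adjusted p = 0.12, and 0.016 without replicate 4). The strand setting of the counting is not given in the sources used here, so its reads cannot be told from those of genes on the other strand. FAM30A, a long noncoding RNA on chromosome 14, stood at 41.1, 27.7, 40.1 and 19.1 CPM and 12.4, 14.3, 9.74 and 14.9 CPM (-1.31, SE 0.297, adjusted p = 0.12, 0.039 in the 8 libraries alone and 0.0197 without replicate 4). Again replicate 4 was the lowest library at 8 kPa.

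SERPINI1, neuroserpin, an inhibitor of tissue plasminogen activator made by neurons, stood at 251, 168, 243 and 137 CPM at 8 kPa and 126, 82.8, 101 and 88 CPM at 30 kPa (-1.01, SE 0.256, adjusted p = 0.133, and 0.0276 without replicate 4). The synapse organiser CBLN2 stood at 15, 11.3, 15.6 and 12.9 CPM and 6.3, 6.9, 5.84 and 8.42 CPM (-1.0, SE 0.268, adjusted p = 0.139). COL15A1, a collagen of basement membranes, stood at 12.7, 11.8, 12.4 and 7.98 CPM and 6.22, 5.47, 5.98 and 5.56 CPM (-0.94, SE 0.151, adjusted p = 0.0807, and 0.00507 without replicate 4). In SERPINI1 and COL15A1 replicate 4 was the lowest library at 8 kPa, whereas in CBLN2 it was not. CBLN2 and COL15A1 passed in the 8 libraries alone (adjusted p = 0.0201 and 0.0248).

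The small heat shock protein HSPB7 stood at 16.1, 16, 15.9 and 12 CPM at 8 kPa and 8.18 to 9.28 CPM at 30 kPa (-0.79, SE 0.125, adjusted p = 0.0807). TNFAIP8L3, which transfers phosphoinositides, stood at 11.5 to 16 CPM and 6.97 to 8.77 CPM (-0.85, SE 0.203, adjusted p = 0.129). Both passed in the 8 libraries alone (adjusted p = 0.0201 each). The other genes among the 12 lowest were the prostaglandin E2 receptor PTGER3 (-0.83), the cytokine TSLP (-0.81), the transcription factor KLF5 (-0.67) and the olfactory receptor gene OR10AC1 (-0.86), which is annotated as a polymorphic pseudogene. In PTGER3, TSLP and OR10AC1 replicate 4 lay past the midpoint on the 30 kPa side, and without it their adjusted p were 0.0125, 0.0408 and 0.00154.

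**Figure D3:**
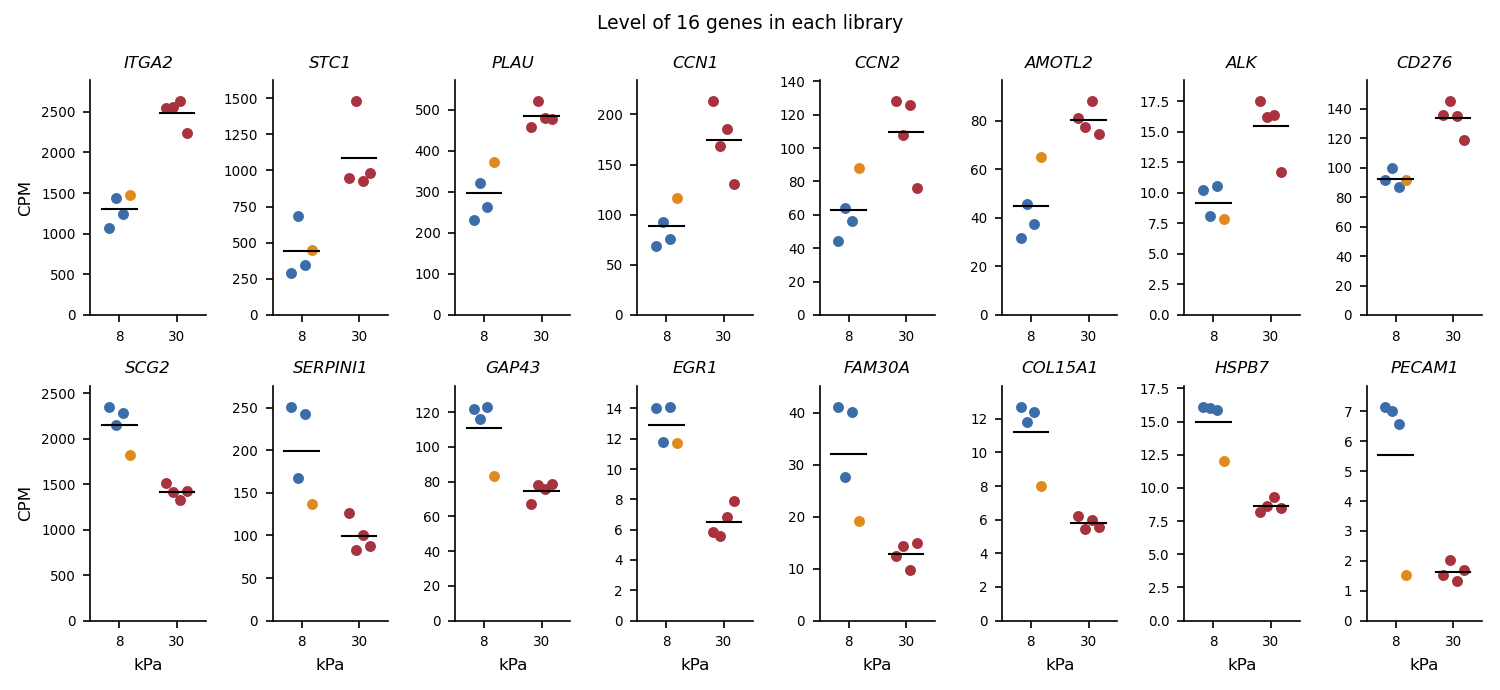
Level (CPM, axes from 0) of 16 genes in each library at 8 and 30 kPa, with 8 kPa replicates 1 to 3 in blue, 8 kPa replicate 4 in orange, 30 kPa replicates in red and a line at each group's mean. ITGA2 and CD276 show replicate 4 within its own group, and PECAM1 shows it among the 30 kPa libraries at 1.51 CPM.

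Among the genes with the smallest p were also SCUBE1, ACAP3 and DYNLT3. SCUBE1, a secreted and cell-surface glycoprotein, stood at 15.2 to 17.7 CPM and 21.7 to 25.9 CPM. ACAP3, a GTPase-activating protein that turns ARF6 off, stood at 31.4 to 37 CPM and 41.6 to 46.6 CPM. DYNLT3, a dynein light chain, stood at 73.2 to 82.5 CPM and 55.9 to 65 CPM. All 3 had clearly separate groups, and they passed in the 8 libraries alone (adjusted p = 0.0213, 0.039 and 0.0438).

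The 61 genes called in the 8 libraries alone differed by a median of 0.53 in log2 units, from 0.26 to 1.78, and 6 of them differed by at least 2-fold. In all 61 the groups did not overlap, and 50 were also called in the fit of 12 libraries without 8 kPa replicate 4. Without 8 kPa replicate 1 most calls were lost, and 2 genes were called in the 8-library fit, ITGA2 and SCARF2 (adjusted p = 0.0259 each). That library was the shallow one and also the farthest from 30 kPa on the first component. In edgeR's fits of 11 libraries, 2052 genes had an unadjusted p under 0.05 without 8 kPa replicate 1 and 1909 without 8 kPa replicate 3. With a term for depth class, set by a cut at 20000000 counts, edgeR's fit of 12 libraries gave 2036 such genes in place of 3218. Its lowest adjusted p was 0.238, and 0 genes passed. Of the 8 libraries only 8 kPa replicate 1 fell under the cut, so its depth cannot be told apart from its other traits. MYPN, a protein of the muscle Z-disc, was among the called genes and is named after its values were seen. It stood at 1.31, 1.69, 1.6 and 1.96 CPM at 8 kPa and 3.25, 4.42, 3.33 and 3.6 CPM at 30 kPa (log2 fold change 1.13, SE 0.16 and adjusted p = 0.0213 in the 8 libraries alone).

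YAP and TAZ target genes stood higher at 30 kPa as a list. Of 28 tested targets 21 had positive fold changes, with a median of 0.17, beside a median of 0.00 over all tested genes. In 6 of them (21.4%) all 30 kPa libraries lay above all 8 kPa libraries, and in 0 below, beside 4.79% and 6.5% of all tested genes. None passed edgeR's test with 12 libraries. There 8 members had an unadjusted p under 0.05 and were higher, and 2 were lower, beside 8.35% and 9.57% of all tested genes. In the 8 libraries alone 2 passed higher and 0 lower, beside 0.154% and 0.194%. Those 2, CCN1 and LATS2, are among the 6 without overlap. The members were chosen with earlier results of these data known, so this is a description of the list.

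CCN1, a secreted matrix protein that binds integrins, stood at 68.6, 92.3, 76.1 and 117 CPM at 8 kPa and 213, 168, 185 and 131 CPM at 30 kPa. CCN2, its relative, stood at 44.2, 64.1, 56.2 and 88.2 CPM and 128, 108, 126 and 76.1 CPM. In both genes 8 kPa replicate 4 was the highest of its group and 30 kPa replicate 4 the lowest of its group, and in CCN2 those 2 libraries crossed. The log2 fold changes were 0.97 (SE 0.314, adjusted p = 0.164) and 0.79 (SE 0.314, adjusted p = 0.22), and they were 1.14 and 0.99 without 8 kPa replicate 4. CCN1 passed in the 8 libraries alone (adjusted p = 0.0399) and CCN2 did not (0.0749).

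CCN2 is a standard reporter of TEAD factors, and the stretch before its start is printed because it holds their core motif. The 240 bases of RefSeq sequence are on the minus strand (build GRCh38.p14, chr6:131951383-131951622), in lower case with each match to the TEAD core GGAATG in capitals.
CCN2: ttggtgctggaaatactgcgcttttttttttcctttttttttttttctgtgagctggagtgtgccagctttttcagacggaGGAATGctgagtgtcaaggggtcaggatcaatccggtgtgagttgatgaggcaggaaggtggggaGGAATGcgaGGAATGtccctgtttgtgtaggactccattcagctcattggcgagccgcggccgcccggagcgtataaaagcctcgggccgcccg
The 3 matches begin 169, 104 and 95 bases before the start. The core GGAATG was searched on both strands over the 250 bases before each start. It was found in 4175 of 35116 windows (11.9%), in 13.4% of tested genes with a window and in 13.2% of the genes higher at 30 kPa without overlap. Of 19 target genes with a window, 9 held it at any of their starts, among them AMOTL2, PTPN14 and ANKRD1. A match is a description of the letters, not of binding.

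Several separated targets encode proteins that restrain YAP. AMOTL2, a junction protein that holds YAP in the cytoplasm, stood at 31.8, 45.8, 37.6 and 64.9 CPM at 8 kPa and 81.1, 77.5, 88 and 74.6 CPM at 30 kPa (log2 fold change 0.83, SE 0.24, adjusted p = 0.15, and 0.0268 without replicate 4). The kinase LATS2 stood at 37.5, 43.8, 41.6 and 51.8 CPM and 67.4, 64.5, 70.3 and 56.3 CPM (0.56, SE 0.166, adjusted p = 0.15, 0.039 in the 8 libraries alone and 0.0458 without replicate 4). PTPN14, a phosphatase that binds YAP, stood at 174, 223, 202 and 289 CPM and 303, 324, 322 and 302 CPM (0.49, SE 0.163, adjusted p = 0.17, and 0.0329 without replicate 4). None of these 3 genes overlapped between groups, and in each replicate 4 was the 8 kPa library nearest to 30 kPa. ARHGEF17, an exchange factor for RhoA, was higher by 0.22 on the log2 scale, also without overlap (adjusted p = 0.154, and 0.0359 without replicate 4).

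Of 13 targets separated by 8 kPa replicates 1 to 3, replicate 4 lay on the 30 kPa side in all 13, beside 71.7% over all separated genes. Without it the median of the list was 0.27 in place of 0.17, 5 members passed edgeR's test higher and 0 lower, beside 2.97% and 2.66% of all tested genes. Then 13 were higher and 1 lower without overlap, beside 13.6% and 13.5%. ANKRD1, a muscle ankyrin repeat protein often used as a YAP readout, stood at 3.42 to 7.2 CPM and 3.49 to 7.42 CPM, with replicate 4 the highest at 8 kPa (0.13, SE 0.334, adjusted p = 0.865). Its log2 fold change was -0.00 without 8 kPa replicate 2 and -0.10 without 30 kPa replicate 3.

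Among 27 genes of the YAP, TAZ, TEAD and Hippo pathway 7 were positive, with a median of -0.06. Without overlap 4 were higher (14.8%) and 2 lower (7.41%), beside 4.79% and 6.5% of all tested genes. AMOTL2, LATS2 and PTPN14, among those higher, are the same genes that were counted in the target list. WWTR1, which encodes TAZ, stood at 135, 112, 128 and 101 CPM at 8 kPa and 94.7, 83, 87.3 and 86.1 CPM at 30 kPa, lower in every library (-0.43, SE 0.123, adjusted p = 0.15, and 0.0368 without replicate 4). VGLL4, which competes with YAP for TEAD factors, stood at 90.6, 90.5, 83.8 and 74 CPM and 111, 107, 102 and 91.8 CPM (0.28, SE 0.0697, adjusted p = 0.133). Here replicate 4 was the lowest library at 8 kPa, the one farthest from 30 kPa. YAP1 stood at 209 to 229 CPM and 202 to 217 CPM, with overlap (-0.07, SE 0.0525, adjusted p = 0.475).

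**Figure D4:**
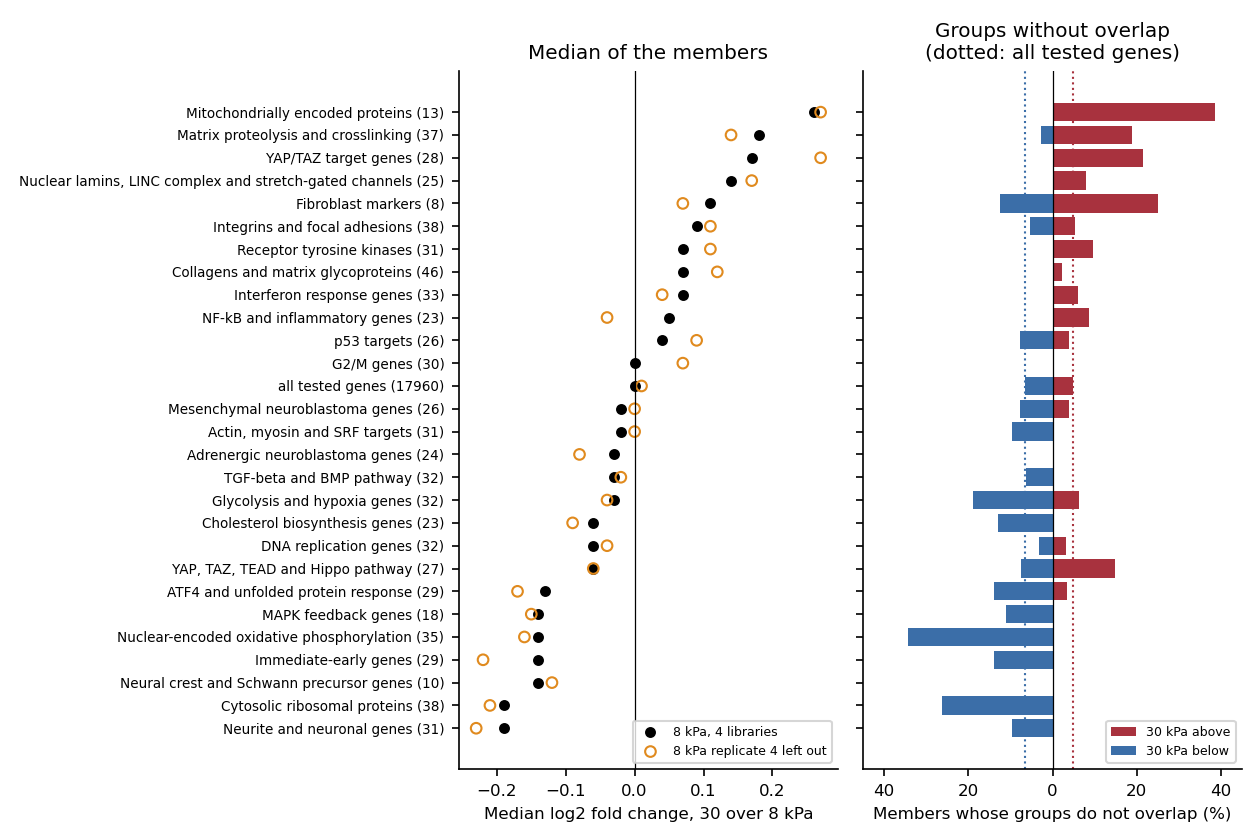
Left: median log2 fold change of 30 over 8 kPa for each gene list with at least 8 tested members (number in brackets), with all 8 kPa libraries (filled) and with 8 kPa replicate 4 left out (open). Right: percentage of members whose 4 libraries at 30 kPa all lay above (red) or below (blue) those at 8 kPa, with dotted lines at 4.79% and 6.5% for all tested genes.

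Immediate-early genes are the fast transcriptional response to growth signals and stress. Of 29 tested members 7 were positive, the median was -0.14, and 0 were higher and 4 lower (13.8%) without overlap, beside 6.5% of all tested genes lower. EGR1, a zinc finger factor induced by serum, stood at 14, 11.8, 14.1 and 11.7 CPM at 8 kPa and 5.84, 5.55, 6.81 and 7.87 CPM at 30 kPa. Replicate 4 stood with its own group and the groups lay well apart (log2 fold change -0.98, SE 0.216, adjusted p = 0.115, and 0.0201 in the 8 libraries alone). EGR2 stood at 3.28, 3.58, 3.32 and 1.27 CPM and 0.626, 1.51, 0.788 and 1.17 CPM (-1.47, SE 0.334, adjusted p = 0.12), with replicate 4 among the 30 kPa libraries. FOS stood at 2.5 to 5.16 CPM and 1.47 to 2.39 CPM (-0.96, SE 0.249, adjusted p = 0.134) and FOSB at 0.966 to 1.45 CPM and 0.537 to 0.631 CPM (-0.99, SE 0.282, adjusted p = 0.15), both without overlap.

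The EGR1 promoter is printed because it carries the CArG boxes of serum response factor, the factor that links actin to transcription. The 240 bases are on the plus strand (RefSeq, build GRCh38.p14, chr5:138465229-138465468), with each CArG box in capitals.
EGR1: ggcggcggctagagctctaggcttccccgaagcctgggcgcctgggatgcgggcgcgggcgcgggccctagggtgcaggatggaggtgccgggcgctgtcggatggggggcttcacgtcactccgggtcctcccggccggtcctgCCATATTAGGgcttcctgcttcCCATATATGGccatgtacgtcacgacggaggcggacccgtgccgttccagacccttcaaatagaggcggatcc
The boxes begin 105 and 83 bases before the start. The CArG box was found on either strand in 407 of 35116 windows (1.16%) and in 3 of 21 immediate-early genes with a window, EGR1, EGR2 and SRF.

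FOSL1 and JUN, named after their values were seen, had positive fold changes. FOSL1 stood at 33.6, 40.4, 41 and 85.2 CPM at 8 kPa and 76.8, 59.3, 92.2 and 95.2 CPM at 30 kPa (0.69, SE 0.266, adjusted p = 0.211, and 0.0199 without replicate 4). JUN stood at 36.2, 49.2, 38.1 and 61.5 CPM and 55.5, 54.6, 70.3 and 70 CPM (0.43, SE 0.17, adjusted p = 0.215, and 0.0434 without replicate 4). In both genes only 8 kPa replicate 4 overlapped the 30 kPa libraries. The median of the list was -0.22 without replicate 4 and -0.08 without 8 kPa replicate 2. The growth regulator MYC stood at 17.6 to 22.8 CPM and 19.6 to 25.7 CPM (0.20, SE 0.131, adjusted p = 0.428), and its relative MYCN, an oncogene amplified in some neuroblastomas, at 0.859 to 1.57 CPM and 0.967 to 1.64 CPM (0.04, SE 0.228, adjusted p = 0.945). For MYCN it was -0.11 without 8 kPa replicate 4 and -0.07 without 30 kPa replicate 2.

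The MAPK feedback list holds brakes of ERK signalling that it induces itself, such as the SPRY and DUSP genes. It also holds outputs of ERK signalling that are not brakes, such as the transcription factors ETV4 and FOSL1. Of 18 tested 4 were positive, with a median of -0.14, and 2 were lower (11.1%, beside 6.5% of all tested genes) and 0 higher without overlap. SPRY2, an inhibitor of receptor tyrosine kinase signalling, stood at 78.8, 75.1, 83.6 and 77.3 CPM at 8 kPa and 66.5, 65, 69.5 and 63.8 CPM at 30 kPa (-0.25, SE 0.0506, adjusted p = 0.106). SPRY4, its relative, stood at 116, 106, 110 and 89 CPM and 82.5, 80.4, 78.9 and 80.5 CPM (-0.39, SE 0.0788, adjusted p = 0.106, and 0.0118 without replicate 4). The groups were separate in both, with replicate 4 the lowest 8 kPa library in SPRY4. The ERK phosphatase DUSP4 (-0.33) and the ETS factor ETV4 (-0.17) overlapped between the groups, with 8 kPa replicate 4 past the midpoint in both, and without it their adjusted p were 0.0261 and 0.047. Without replicate 4, 6 members passed lower and 1 higher, FOSL1, which is on both lists, beside 2.66% and 2.97% of all tested genes.

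Receptor tyrosine kinases stood slightly higher. Of 31 tested 27 were positive, with a median of 0.07. Without overlap 3 were higher (9.68%) and 0 lower, beside 4.79% and 6.5% of all tested genes. ALK, a receptor that carries activating mutations in a subset of neuroblastomas, stood at 10.2, 8.09, 10.6 and 7.9 CPM at 8 kPa and 17.5, 16.2, 16.4 and 11.7 CPM at 30 kPa (0.75, SE 0.128, adjusted p = 0.0848). Replicate 4 was the lowest library of both groups. ALK was called in 9 of 24 alternative fits. Over the 24 its adjusted p ran from 1.54e-04 with DESeq2 to 0.335 without 8 kPa replicate 3. It was 0.25 without 8 kPa replicate 1. DDR1, a receptor for collagen, stood at 121, 142, 133 and 137 CPM and 185, 173, 183 and 156 CPM (0.39, SE 0.0942, adjusted p = 0.133, and 0.0402 in the 8 libraries alone). FGFR1 stood at 43.1 to 47.3 CPM and 46.9 to 52.9 CPM (0.13, SE 0.0549, adjusted p = 0.245), with overlap through 30 kPa replicate 4.

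Of 37 tested genes that cut or crosslink the matrix, or inhibit such enzymes, 28 were positive, with a median of 0.18. Without overlap 7 were higher (18.9%) and 1 lower (2.7%), beside 4.79% and 6.5% of all tested genes. The 1 lower was the inhibitor TIMP3 (log2 fold change -0.17, SE 0.115, adjusted p = 0.444), which is named after its values were seen. ADAMTS4, an aggrecan-cutting protease, stood at 17.1, 21.4, 19.9 and 18 CPM at 8 kPa and 27.6, 30.5, 30 and 26.3 CPM at 30 kPa (0.58, SE 0.0875, adjusted p = 0.0807, and 0.0213 in the 8 libraries alone). Urokinase, PLAU, which activates plasminogen, stood at 232, 321, 263 and 373 CPM and 458, 521, 481 and 477 CPM (0.70, SE 0.188, adjusted p = 0.138, 0.0402 in the 8 libraries alone and 0.0313 without replicate 4). The groups of both genes were clear of each other.

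ADAMTS1, another protease of proteoglycans, stood at 124, 132, 136 and 164 CPM and 194, 173, 207 and 162 CPM (0.40, SE 0.11, adjusted p = 0.142, and 0.0261 without replicate 4), with 30 kPa replicate 4 just under 8 kPa replicate 4. The gelatinase MMP9 stood at 1.77, 3.38, 1.25 and 1.8 CPM and 3.5, 4.8, 2.83 and 4.5 CPM (0.91, SE 0.26, adjusted p = 0.15), with overlap through 8 kPa replicate 2. The inhibitor TIMP2 stood at 606, 630, 627 and 647 CPM and 750, 733, 704 and 697 CPM (0.20, SE 0.06, adjusted p = 0.151), a small difference with every library on its own side. Replicate 2 was the highest library of both groups in 19 of the 37 members, beside 11.4% of all tested genes. The median of the list was 0.10 when 8 kPa replicate 1 or 30 kPa replicate 2 was left out, and also 0.10 when the depth class of the libraries entered the fit.

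Adhesion and contractile genes did not share one direction. Of 38 integrin and focal adhesion genes 24 were positive, with a median of 0.09. Without overlap 2 were higher and 2 lower (5.26% each), near the 4.79% and 6.5% of all tested genes. ITGA10, another collagen-binding subunit, stood at 25.1, 22.4, 28.8 and 20 CPM at 8 kPa and 16.1, 14, 17.3 and 13.7 CPM at 30 kPa, in the direction opposite to ITGA2 (-0.66, SE 0.14, adjusted p = 0.106, and 0.0411 in the 8 libraries alone). Zyxin, ZYX, which gathers at adhesions and stress fibres under tension, stood at 289, 262, 293 and 297 CPM and 212, 199, 245 and 236 CPM (-0.35, SE 0.0707, adjusted p = 0.106). Neither gene overlapped between groups. Kindlin-2, FERMT2, an activator of integrins, stood at 119 to 158 CPM and 115 to 123 CPM (-0.26, SE 0.0949, adjusted p = 0.194, and 0.0395 without replicate 4), with replicate 4 among the 30 kPa libraries.

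Of 31 actin, myosin and SRF target genes 11 were positive, with a median of -0.02. Without overlap 0 were higher and 3 lower (9.68%), beside 4.79% and 6.5% of all tested genes. The 3 were the actin-binding proteins profilin, PFN1 (430 to 455 CPM at 8 kPa, 361 to 421 CPM at 30 kPa, log2 fold change -0.22), and cofilin, CFL1 (497 to 521 and 414 to 472 CPM, -0.19), and the small GTPase RHOA (379 to 406 and 343 to 366 CPM, -0.17). Their adjusted p ran from 0.154 to 0.183. Smooth muscle actin, ACTA2, stood at 23.2 to 26.5 CPM and 23.8 to 28.7 CPM (0.07, SE 0.0791, adjusted p = 0.666). Of 46 collagens and matrix glycoproteins 32 were positive, with a median of 0.07. Without overlap 1 was higher (2.17%) and 0 lower, beside 4.79% and 6.5% of all tested genes. In this list replicate 4 lay on the 30 kPa side in all 15 members that 8 kPa replicates 1 to 3 separated, beside 71.7% of all separated genes. Without it 15 of the 46 were higher and 2 lower without overlap. Over all tested genes these shares also rose, to 13.6% and 13.5%.

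Lamins, the LINC complex that ties the nucleus to the cytoskeleton, and stretch-gated channels had 16 of 25 positive and a median of 0.14. Without overlap 2 were higher (8%) and 0 lower, beside 4.79% and 6.5% of all tested genes. The channel TMEM63B, which opens on stretch, stood at 39.3, 44.9, 41.6 and 44.4 CPM at 8 kPa and 55, 58.5, 56 and 50.4 CPM at 30 kPa (0.37, SE 0.0865, adjusted p = 0.124, and 0.039 in the 8 libraries alone). The cation channel TRPM4 stood at 17.3 to 22.1 CPM and 22.7 to 25.1 CPM (0.28, SE 0.0781, adjusted p = 0.15, and 0.0247 without replicate 4). PIEZO1, the main stretch-gated channel of many adherent cells, stood at 89.8, 131, 104 and 159 CPM and 149, 170, 171 and 175 CPM (0.46, SE 0.183, adjusted p = 0.218, and 0.0546 without replicate 4). In PIEZO1 only 8 kPa replicate 4 reached into the 30 kPa range. Among 32 TGF-beta and BMP genes 14 were positive, with a median of -0.03. Without overlap 2 were lower (6.25%, near the 6.5% of all tested genes) and 0 higher. The ligand BMP2 stood at 2.62, 2.41, 2.35 and 4.13 CPM and 4.92, 4.04, 5.55 and 5.8 CPM (0.81, SE 0.186, adjusted p = 0.12), and ID4, a BMP-induced inhibitor of differentiation, at 14 to 19.2 CPM and 10.8 to 12.9 CPM (-0.46, SE 0.172, adjusted p = 0.199).

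Of 31 tested genes of neurites and neurosecretion 6 were positive, with a median of -0.19. Without overlap 0 were higher and 3 lower (9.68%), beside 6.5% of all tested genes lower. Secretogranin II, SCG2, a protein of dense-core vesicles, stood at 2347, 2154, 2277 and 1814 CPM at 8 kPa and 1512, 1410, 1323 and 1421 CPM at 30 kPa (-0.60, SE 0.118, adjusted p = 0.106, and 0.0213 in the 8 libraries alone). GAP43, a growth cone protein, stood at 122, 116, 123 and 83 CPM and 67.3, 78.1, 75.6 and 78.5 CPM (-0.57, SE 0.169, adjusted p = 0.15, and 0.0321 without replicate 4). DPYSL3, which guides axons through microtubules, stood at 176 to 200 CPM and 154 to 169 CPM (-0.24, SE 0.0804, adjusted p = 0.169), and the microtubule-associated protein MAP1A at 111 to 124 CPM and 95.6 to 113 CPM (-0.21, SE 0.0608, adjusted p = 0.15). Replicate 4 was the lowest 8 kPa library in SCG2, GAP43 and MAP1A and lay close to the 30 kPa libraries in GAP43. Without it 3 members passed edgeR's test lower, beside 2.66% of all tested genes, and 14 were lower without overlap, beside 13.5%. Without 8 kPa replicate 1 the median of the list was -0.10.

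The adrenergic and mesenchymal programs did not separate the stiffnesses. Of 24 adrenergic genes 10 were positive, with a median of -0.03 that became 0.03 without 8 kPa replicate 1, and in 0 genes did the groups fail to overlap. By edgeR 0 of them had an adjusted or an unadjusted p under 0.05, beside 0% and 17.9% of all tested genes. The mean log2 level of the list relative to 8 kPa replicates 1 to 3 was -0.452 in 8 kPa replicate 4, lower than in any 30 kPa library, which ran from -0.282 to 0.009. SLC18A1, which loads catecholamines into vesicles, differed by -0.42 on the log2 scale (SE 0.228, adjusted p = 0.341), with replicate 4 the lowest of all 8 libraries at 8.96 CPM. Of 26 mesenchymal genes 11 were positive, with a median of -0.02. Without overlap 1 was higher (3.85%) and 2 lower (7.69%), near the 4.79% and 6.5% of all tested genes. The homeobox factor PRRX1 stood at 1540 to 1720 CPM and 1371 to 1469 CPM (-0.21, SE 0.0625, adjusted p = 0.15). The receptor NOTCH2 stood at 182, 209, 197 and 240 CPM and 237, 262, 256 and 253 CPM (0.28, SE 0.0872, adjusted p = 0.159, and 0.0286 without replicate 4), with overlap through replicate 4. Vimentin, VIM, stood at 1223 to 1791 CPM and 1060 to 1463 CPM (-0.23, SE 0.138, adjusted p = 0.397).

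Cycling genes differed little. Of 30 G2/M genes 15 were positive, with a median of -0.00 and a range from -0.13 to 0.18. The 32 replication genes had a median of -0.06 and a range from -0.15 to 0.22. Without overlap were 0 G2/M genes, and 1 replication gene was higher and 1 lower (3.12% each). All tested genes had 4.79% higher and 6.5% lower, so in lists of this size these counts say little. MKI67, the proliferation marker, stood at 221 to 252 CPM and 218 to 232 CPM (-0.05, SE 0.117, adjusted p = 0.843).

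Genes of the ribosome and of the respiratory chain differed by small amounts in many members, and nuclear and mitochondrial genes of the respiratory chain differed in opposite directions. All 38 tested ribosomal protein genes were negative, with a median of -0.19 and a range from -0.28 to -0.12. As a list the libraries overlapped. Relative to 8 kPa replicates 1 to 3, its mean log2 level was -0.091 in replicate 4 of both stiffnesses. The value was -0.121 in 8 kPa replicate 2 and -0.308 to -0.202 in 30 kPa replicates 1 to 3. Without overlap 10 were lower (26.3%) and 0 higher, beside 6.5% and 4.79% of all tested genes. RPS6 stood at 937, 816, 929 and 870 CPM at 8 kPa and 768, 729, 723 and 790 CPM at 30 kPa (-0.24, SE 0.084, adjusted p = 0.183), and RPL24 at 347 to 379 CPM and 281 to 330 CPM (-0.25, SE 0.0956, adjusted p = 0.206). These genes have many processed pseudogenes that can share their reads. Of 35 nuclear-encoded genes of oxidative phosphorylation 7 were positive, with a median of -0.14. The mean log2 level of this list also overlapped, at -0.045 in 30 kPa replicate 4 and -0.065 in 8 kPa replicate 4. Without overlap 12 were lower (34.3%, beside 6.5% of all tested genes) and 0 higher. The complex I subunits NDUFA6 (19, 17.9, 18.7 and 16.1 CPM at 8 kPa and 13.1, 12.6, 14 and 14.1 CPM at 30 kPa, -0.41, adjusted p = 0.106) and NDUFB3 (46.6 to 51.5 and 38.6 to 43.5 CPM, -0.28, adjusted p = 0.106) were among them, and NDUFA6 passed in the 8 libraries alone (0.0491).

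The 13 proteins encoded by the mitochondrial genome were all positive, with a median of 0.26. Relative to 8 kPa replicates 1 to 3, their mean log2 level was 0.194 in 8 kPa replicate 2. That is above the 0.161 of 30 kPa replicate 3, so as a list the libraries overlapped. Without overlap 5 were higher (38.5%, beside 4.79% of all tested genes) and 0 lower. MT-ATP6, a subunit of ATP synthase, stood at 5038, 5804, 4861 and 5285 CPM at 8 kPa and 6257, 6475, 6212 and 6299 CPM at 30 kPa (0.27, SE 0.104, adjusted p = 0.212). MT-CYB of complex III stood at 6826, 8263, 6754 and 7522 CPM and 8957, 9227, 8702 and 8316 CPM (0.26, SE 0.111, adjusted p = 0.243). Both had replicate 2 as the highest library of each group. In this list replicate 4 sided with its own label: of the 5 members separated by 8 kPa replicates 1 to 3 it lay past the midpoint in 0. The median was 0.24 with an offset for length and GC content and from 0.22 to 0.32 when single libraries at 8 or 30 kPa were left out. These genes are transcribed as parts of long precursors and have nuclear copies that can share reads, so they are not independent of each other. Their share of each library's counts differed between these groups, and its part in other differences was not tested.

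Of 32 genes of glycolysis and hypoxia, with a median of -0.03, 6 were lower (18.8%) and 2 higher (6.25%) without overlap. All tested genes had 6.5% lower and 4.79% higher. GAPDH stood at 2501 to 2720 CPM at 8 kPa and 2070 to 2370 CPM at 30 kPa (-0.26, SE 0.0696, adjusted p = 0.134), and TPI1 at 360 to 415 CPM and 311 to 342 CPM (-0.27, SE 0.068, adjusted p = 0.133). The glucose transporter SLC2A1 stood at 35.8, 41.9, 36.7 and 42.6 CPM and 50.4, 53.6, 51.4 and 47 CPM, in the direction opposite to those glycolytic enzymes (0.36, SE 0.118, adjusted p = 0.166). The amino acid stress factor ATF4 stood at 89.2, 90.7, 88.3 and 79.6 CPM and 62, 66.1, 64.1 and 72.5 CPM (-0.39, SE 0.0974, adjusted p = 0.133, and 0.0276 in the 8 libraries alone). SESN2, an inhibitor of mTORC1 that ATF4 and p53 both induce, stood at 17.1, 17, 16.8 and 18.3 CPM and 24.2, 23.6, 23.3 and 22.6 CPM (0.44, SE 0.0872, adjusted p = 0.106, and 0.0201 in the 8 libraries alone). Both genes had narrow groups and no overlap, and they differed in opposite directions. Of the 29 ATF4 and unfolded protein genes 1 was higher (3.45%) and 4 lower (13.8%) without overlap, with a median of -0.13. Of 23 cholesterol synthesis genes 0 were higher and 3 lower (13%), among them ACAT2 (32.5 to 39.5 and 27.8 to 30.7 CPM, -0.35, adjusted p = 0.106, and 0.016 without replicate 4) and the isomerase IDI1 (55.2 to 63.1 and 50.7 to 52 CPM, -0.22, adjusted p = 0.15, and 0.0402 without replicate 4).

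Of 26 p53 targets 1 was higher (3.85%) and 2 lower (7.69%) without overlap, near the 4.79% and 6.5% of all tested genes. The kinase PLK2 stood at 125, 112, 128 and 98.7 CPM at 8 kPa and 68.3, 70.6, 78.5 and 81.1 CPM at 30 kPa (-0.63, SE 0.155, adjusted p = 0.133, and 0.0201 in the 8 libraries alone), and the cell cycle inhibitor CDKN1A at 541 to 572 CPM and 454 to 524 CPM (-0.22, SE 0.0682, adjusted p = 0.153). Of 33 interferon response genes 2 were higher (6.06%, near the 4.79% of all tested genes) and 0 lower. STAT2, which carries interferon signals to the nucleus, stood at 102, 121, 111 and 124 CPM and 162, 152, 147 and 144 CPM (0.40, SE 0.103, adjusted p = 0.133, and 0.0316 in the 8 libraries alone), and the peptide transporter TAP1 at 37.5 to 44.1 CPM and 45.5 to 48.8 CPM (0.24, SE 0.0607, adjusted p = 0.133, and 0.0242 without replicate 4). The growth factor of macrophages CSF1 stood at 41.9, 42.4, 41.3 and 50 CPM and 66.8, 59.3, 68.5 and 61.5 CPM (0.54, SE 0.0981, adjusted p = 0.103, and 0.0201 in the 8 libraries alone).

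Markers of other cells gave a mixed picture. Of 8 tested fibroblast markers 2 were higher (25%) and 1 lower (12.5%) without overlap, beside 4.79% and 6.5% of all tested genes. Their summed CPM, here of the unscaled library total, ran from 1231 to 1521 CPM at 8 kPa and from 1492 to 1686 CPM at 30 kPa. FAP, a surface protease of activated fibroblasts, stood at 96.1, 114, 106 and 117 CPM and 154, 151, 137 and 144 CPM (0.44, SE 0.15, adjusted p = 0.18, and 0.0248 in the 8 libraries alone). THY1 stood at 95.2 to 112 CPM and 117 to 139 CPM (0.25, adjusted p = 0.284), and S100A4 at 29.4 to 37 CPM and 21.9 to 27.8 CPM (-0.40, adjusted p = 0.182). The line's own flat cells express several of these genes, and their part in the matrix and YAP lists was not tested. PECAM1, an adhesion molecule of endothelium, stood at 7.15, 7, 6.57 and 1.51 CPM at 8 kPa and 1.54, 2.02, 1.33 and 1.68 CPM at 30 kPa (-1.75, SE 0.426, adjusted p = 0.133, and 0.0118 without replicate 4). Replicate 4 lay inside the 30 kPa range. The other tested endothelial marker, the receptor TEK, had the opposite sign, at 0.459, 0.684, 0.899 and 1.02 CPM and 1.71, 1.09, 1.18 and 0.822 CPM (0.60, SE 0.266, adjusted p = 0.26), with overlap. The other 4 of the 6 endothelial markers, CDH5, VWF, KDR and CLDN5, were under 1 CPM in all 8 libraries.

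Where 8 kPa replicate 4 sided with 30 kPa, it often did so fully. Among genes separated by 8 kPa replicates 1 to 3, those with the widest gap and replicate 4 past the midpoint were RMEL3, FAM30A, G0S2, MTUS2, CCL7 and HPD downward and ESM1, CLDN1, AOX1, PSG4, CPA4 and PDCD1LG2 upward. These genes were chosen for that pattern, and the values that follow are given with no test. For RMEL3, FAM30A, CLDN1, AOX1 and PDCD1LG2 an adjusted p without replicate 4 stands further above. Those p-values rest on the libraries by which the genes were chosen, and they are no support. ESM1, a secreted proteoglycan, stood at 21.5, 29.6, 31.4 and 74.2 CPM at 8 kPa and 48.8 to 89.1 CPM at 30 kPa. The carboxypeptidase CPA4 stood at 4.07, 4.19, 5.2 and 11 CPM and 7.53 to 13.7 CPM, and PSG4, of a family of near-identical pregnancy glycoprotein genes that can share reads, at 8, 11.4, 10.5 and 23.9 CPM and 20.4 to 26.8 CPM. G0S2, an inhibitor of triglyceride breakdown, stood at 79.3, 124, 70.7 and 27 CPM and 24.5 to 47 CPM. The microtubule-associated protein MTUS2 stood at 9.25, 8.61, 9.46 and 4.34 CPM and 3.29 to 4.38 CPM, the chemokine CCL7 at 10.1, 12.5, 6.84 and 4.67 CPM and 1.86 to 6.48 CPM, and the tyrosine-degrading enzyme HPD at 18.9, 22.2, 15.8 and 5.32 CPM and 5.73 to 11.7 CPM. In HPD replicate 4 was lower than all libraries at 30 kPa.

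By list, replicate 4 lay on the 30 kPa side in 10 of 13 separated neurite genes, 13 of 16 integrin and focal adhesion genes, 9 of 10 lamin, LINC and channel genes and 8 of 9 MAPK feedback genes. It did so in 6 of 13 ribosomal, 13 of 20 nuclear oxidative phosphorylation and 3 of 12 glycolysis and hypoxia genes, and in 0 of 5 mitochondrially encoded genes, beside 71.7% of all separated genes. The mean log2 level of the YAP/TAZ targets relative to 8 kPa replicates 1 to 3 was 0.231 in replicate 4 and 0.189 to 0.333 at 30 kPa, so that it lay inside the range. For the mitochondrially encoded genes the value was -0.008 in replicate 4 and 0.161 to 0.307 at 30 kPa. What set replicate 4 apart was not tested.

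**Figure D5:**
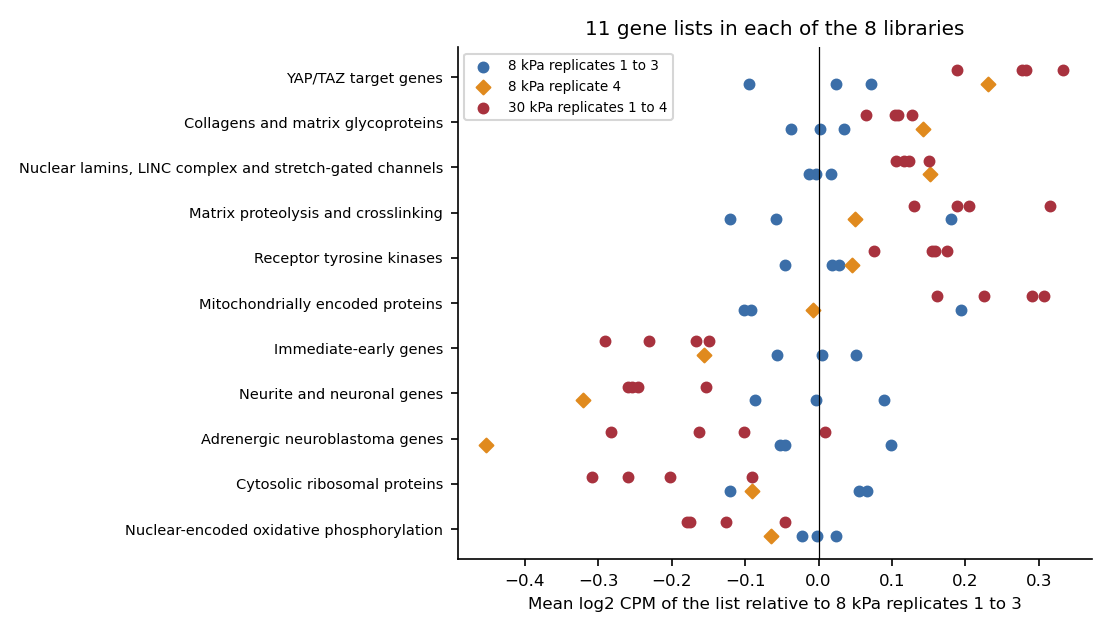
Mean log2 CPM of 11 gene lists in each library, relative to the mean of 8 kPa replicates 1 to 3 (0 line), with 8 kPa replicates 1 to 3 in blue, 8 kPa replicate 4 as an orange diamond and 30 kPa replicates in red. Replicate 4 lies within the 30 kPa range for the YAP/TAZ targets (0.231), beyond it for the collagens (0.142) and with its own group for the mitochondrially encoded genes (-0.008).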

How the data were processed

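RNA from SK-N-SH cells on surfaces of 1, 8 and 30 kPa was sequenced in 12 libraries, 4 per stiffness. The authors deposited a table of raw counts per gene; the submitters' processing notes name HISAT2 and GRCh38, and the counting tool, annotation release and strand setting are not given in the sources used here. Gene identifiers were matched to symbols and to GENCODE release 29 positions. Counts were filtered (filterByExpr), scaled (TMM) and tested with edgeR 4.0.16 in R 4.3.3, by the quasi-likelihood test over all 12 libraries with Benjamini-Hochberg adjustment and a threshold of 0.05. DESeq2 1.42.0, limma-voom (limma 3.58.1), other scalings, filters and designs, the 8 libraries alone and leaving out each library were alternatives, and the test was checked on simulated data. Adjusted p without replicate 4 come from the fit of 11 libraries. Genes were named by rule: the 12 highest and 12 lowest log2 fold changes without overlap and with a mean of at least 5 CPM, up to 4 of each list by smallest p, 20 fixed names, the 10 smallest p, up to 10 by smallest adjusted p in the 8 libraries alone, and the 6 in each direction where 8 kPa replicate 4 sided most with 30 kPa. Not all genes the rule gives are printed. Members and lists were chosen with earlier results of these data known.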

Additional observations from a re-analysis of the deposited data

Results flagged for a closer look

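Single libraries stood far from the other 3 of their group in the total count and in 14 of 232 groups of gene levels (116 genes at 2 stiffnesses), by the gap to the nearest library over the range of the group. Chance gives about 1 such group in 20, and genes that vary together are not independent. The total of 8 kPa replicate 1, 14951116 counts, was low. In 12 of the 14 groups the library was 8 kPa replicate 4. It was low in HSPB7 (12 CPM), PTGER3 (4.5 CPM), PECAM1 (1.51 CPM), EGR2 (1.27 CPM), GAP43 (83 CPM), SLC18A1 (8.96 CPM) and MTUS2 (4.34 CPM), and high in FOSL1 (85.2 CPM), BMP2 (4.13 CPM), CSF1 (50 CPM) and CPA4 (11 CPM). In each of these 11 genes the deviation was toward the 30 kPa libraries. MTUS2 and CPA4 were named because replicate 4 sided with 30 kPa, so for them this was set by the choice. The genes screened were the named ones and are not a sample of all genes. It was also high in KRT8 (16.7 CPM), above all 4 libraries at 30 kPa. The other groups were at 30 kPa, where replicate 2 was high in STC1 (1478 CPM) and in ACAT2 (30.7 CPM).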

How the results depend on the processing

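The count of genes past the threshold, 0 in edgeR's test over 12 libraries, was 330 without a filter, 414 with DESeq2, 61 in the 8 libraries alone, 2 there without 8 kPa replicate 1 and 2612 there without 8 kPa replicate 4. It stayed at 0 with both other scalings, the stricter filter, limma-voom, the depth class and the length and GC offset. Leaving out single libraries gave 0 to 1026, namely 1026 when 8 kPa replicate 4 was left out, 187 for 1 kPa replicate 2, 21 for 1 kPa replicate 4 and 1 (ALK) for 30 kPa replicate 4. The genes without overlap, 2027, numbered 2266 to 4874 when a library was left out, where fewer libraries make separation easier: 4874 for 8 kPa replicate 4, 3223 for 30 kPa replicate 4 and 3164 for 8 kPa replicate 2. The share of genes in which 8 kPa replicate 4 sided with 30 kPa was 57.8% within or past the 30 kPa range in place of 71.7% past the midpoint. With the replicate number as a block 40 genes passed. Deviations of libraries with the same number correlated at 0.0791, 0.369, 0.051 and 0.176, low for replicates 1 and 3, so the numbers were not taken as pairs, and 3 of 4 libraries at 8 kPa correlated best with their own number. Some log2 fold changes turned sign when 1 library was left out. The values ran from -0.10 (30 kPa replicate 3; -0.00 for 8 kPa replicate 2) to 0.43 in ANKRD1 and from -0.11 (8 kPa replicate 4, in 12 and in 8 libraries; -0.07 for 30 kPa replicate 2) to 0.17 in MYCN. They ran from -0.06 to 1.22 in CXCL8 and from -0.40 to 1.38 in IL6 (lowest for 30 kPa replicate 2, highest for 8 kPa replicate 2), and from -1.07 to 0.13 in PTGS2 for the same libraries. In 2 epithelial markers near no difference they ran from -0.12 (8 kPa replicate 1) to 0.12 (8 kPa replicate 4, in 12 and in 8 libraries) in KRT18 and from -0.07 (8 kPa replicate 2) to 0.19 (8 kPa replicate 4) in EPCAM. The cause was not tested. Medians of lists moved by more than the spread between libraries for receptor tyrosine kinases (0.15 without 30 kPa replicate 4) and immediate-early genes (-0.22 without 8 kPa replicate 4), among others, with no change of direction in these 2. Genes near 1 CPM rest on few counts, the shallow 8 kPa replicate 1 most of all.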

Other observations

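Most inflammatory genes stood highest in replicate 2 at both stiffnesses. Of 23 tested NF-kB and inflammatory genes 14 were positive, with a median log2 fold change of 0.05 that ran from -0.07 to 0.15 when single libraries were left out, and 16 (69.6%) had their highest level at both stiffnesses in replicate 2, beside 2051 of all 17960 tested genes (11.4%). The mean log2 level of the list relative to 8 kPa replicates 1 to 3 was 0.445 in 8 kPa replicate 2 and 0.447 in 30 kPa replicate 2, and between -0.563 and -0.043 in the other 6 libraries. The genes that follow were chosen after their values were seen. The neutrophil chemokine CXCL8 stood at 1122, 3171, 975 and 617 CPM in 8 kPa replicates 1 to 4 and 1572, 4176, 1032 and 1620 CPM in 30 kPa replicates 1 to 4. The cytokine IL6 stood at 18.4, 59, 15.6 and 5.4 CPM and 27.2, 77.8, 11 and 18.4 CPM. PTGS2, the inducible enzyme of prostaglandin synthesis, stood at 895, 1874, 669 and 222 CPM and 557, 1305, 347 and 402 CPM. In all 3 genes replicate 2 was the highest library of both groups, 8 kPa replicate 4 was the lowest of all 8 libraries, and the groups overlapped. The log2 fold changes of 30 over 8 kPa were 0.51 (SE 0.579), 0.43 (SE 0.73) and -0.49 (SE 0.537), with adjusted p of 0.672, 0.788 and 0.664 in edgeR's test. The labels give no link between libraries of the same number, and what they share was not tested.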
